A study of Mus musculus with 8 samples.

Results

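The genes described here are 58 genes of mitosis and the G2/M phase of the cell cycle, measured by bulk RNA-seq in sorted mouse T follicular helper (Tfh) cells. They are a list of gene names, regulators and machinery of cell division, with no measured value in its rule, and it was drawn up with earlier results of these data known. All 58 were found among the 16735 genes present in the tables of both experiments, and all 58 were among the 14418 genes that passed the low-count filter and were tested.

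Tfh cells help B cells mature in germinal centres. The cells came from K/BxN mice, which develop autoimmune arthritis spontaneously, and which here carried a fate-mapping reporter for Th17 cells, the IL-17-producing helper T cells. In such a reporter, cells that once switched on the Th17 program keep the fluorescent protein ZsGreen after they change state. Every group was sorted as CD4+, TCRβ+, CD25-, CXCR5+ and PD-1+, after CD4+ T cells had been enriched by negative selection. The 4 groups were Peyer's patch ZsGreen-, Peyer's patch ZsGreen+, spleen ZsGreen- and spleen ZsGreen+. Peyer's patches are lymphoid tissue in the wall of the small intestine. Each group had 2 libraries, 1 in each of 2 experiments, and each experiment held all 4 groups. The sources used here do not give the driver of the fate-mapping Cre, the age and sex of the mice or any pooling of animals. Nothing in the labels says that the libraries came from separate animals, so a p-value here reflects the spread of these libraries, part of which may be technical.

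The cell cycle ends with G2 and mitosis. Cyclin-dependent kinase 1 (Cdk1), joined to a B-type cyclin, drives a cell into mitosis, the Aurora and Polo-like kinases build the spindle, and the spindle checkpoint holds the cell back until every chromosome is attached. The anaphase-promoting complex then destroys cyclin B and securin, the sister chromatids part, and the central spindle directs cytokinesis. The mRNAs of these proteins are made mainly in late S phase and G2. In resting cells the DREAM complex represses many of these genes through a promoter element called the cell cycle genes homology region (CHR), and in dividing cells B-Myb and FoxM1 activate them, often together with the factor NF-Y at CCAAT boxes. In Tfh cells and their precursors these mRNAs mark the cells that are dividing.

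Promoter sequences are shown first because the members share a promoter layout that their selection did not use. RefSeq windows reaching from 250 bases before to 50 bases after the start site (build GRCm38.p6) were matched by symbol for 49 of the 58 members. The CHR, read as TTTGAA or TTCGAA on either strand, was found in the windows of 38 of these 49 members (77.6%), against 14.4% of the 9790 tested genes with a window and 19.4% of all 27025 genes with a window. The CCAAT box, read as CCAAT on either strand, was found in 35 members (71.4%), against 39.5% of the tested genes and 37.9% of all genes. Both stood in 1 window in 32 members (65.3%), against 6.31% of the tested genes and 7.7% of all genes. CCAAT stood at 2 or more places in 24 members (49%), against 15.7% of the tested genes. Where a gene has several windows the first one listed was used. Overlapping matches were counted, and a match is a run of letters, not a measured binding site.

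The 6 windows below give the 200 bases before the start site, 5′ to 3′ on the strand of the gene, with matches in capitals. TTTGAA and TTCGAA are the CHR, and TTCAAA is the CHR on the opposite strand. CCAAT is the CCAAT box, and ATTGG is the box on the opposite strand. Cdk1, Cdc20, Ube2c, Top2a and Kif11 are shown as members with both motifs, taken from several steps of mitosis. Birc5 is shown as a member with neither in its window.
Cdk1, reverse strand, chr10:69352913-69353112: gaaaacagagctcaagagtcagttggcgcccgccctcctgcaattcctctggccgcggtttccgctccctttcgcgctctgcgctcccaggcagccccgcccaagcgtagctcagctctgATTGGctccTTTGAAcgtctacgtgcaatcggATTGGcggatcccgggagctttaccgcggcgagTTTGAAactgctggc
Cdc20, reverse strand, chr4:118437344-118437543: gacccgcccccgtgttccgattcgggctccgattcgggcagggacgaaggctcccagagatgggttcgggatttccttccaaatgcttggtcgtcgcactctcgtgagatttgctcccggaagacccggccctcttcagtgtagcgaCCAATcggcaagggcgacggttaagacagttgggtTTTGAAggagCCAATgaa
Ube2c, forward strand, chr2:164769729-164769928: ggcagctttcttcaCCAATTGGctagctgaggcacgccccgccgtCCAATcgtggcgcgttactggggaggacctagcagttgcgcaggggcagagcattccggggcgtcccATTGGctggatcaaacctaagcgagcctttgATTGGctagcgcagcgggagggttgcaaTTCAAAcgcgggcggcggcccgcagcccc
Top2a, reverse strand, chr11:99024190-99024389: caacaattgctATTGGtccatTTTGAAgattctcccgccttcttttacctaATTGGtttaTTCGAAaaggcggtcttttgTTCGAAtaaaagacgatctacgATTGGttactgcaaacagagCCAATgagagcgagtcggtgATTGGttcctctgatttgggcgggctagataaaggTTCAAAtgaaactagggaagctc
Kif11, forward strand, chr19:37376182-37376381: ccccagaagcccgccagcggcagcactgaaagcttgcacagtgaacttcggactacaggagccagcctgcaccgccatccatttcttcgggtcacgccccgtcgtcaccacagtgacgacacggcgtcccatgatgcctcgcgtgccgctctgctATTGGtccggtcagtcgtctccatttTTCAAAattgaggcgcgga
Birc5, forward strand, chr11:117849037-117849236: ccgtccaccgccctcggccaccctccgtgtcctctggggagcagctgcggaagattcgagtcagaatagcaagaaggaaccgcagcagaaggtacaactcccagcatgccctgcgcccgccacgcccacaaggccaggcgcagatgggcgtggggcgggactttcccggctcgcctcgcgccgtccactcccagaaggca

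In Top2a 5 CCAAT boxes and 4 CHR matches lay in the 200 bases before the start, and in Ube2c 5 CCAAT boxes and 1 CHR match, with 2 of the boxes overlapping on opposite strands. In Kif11 there was 1 of each. The CHR matches of members clustered close to the start: 39 of 53 (73.6%) lay within 50 bases of it, against 318 of 1498 (21.2%) in the other tested genes. The median position was -9 bases from the start in members and -143 in other genes. CCAAT matches were spread further upstream, with a median position of -65 in members and -86 in other genes. No match in Birc5 says only that these letters are not in this window. The windows of Aurkb, Incenp, Smc4, Kif20a, Cdca2, Cdc25c, Foxm1, Tpx2 and Ccna2 were not matched.

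**Figure D1:**
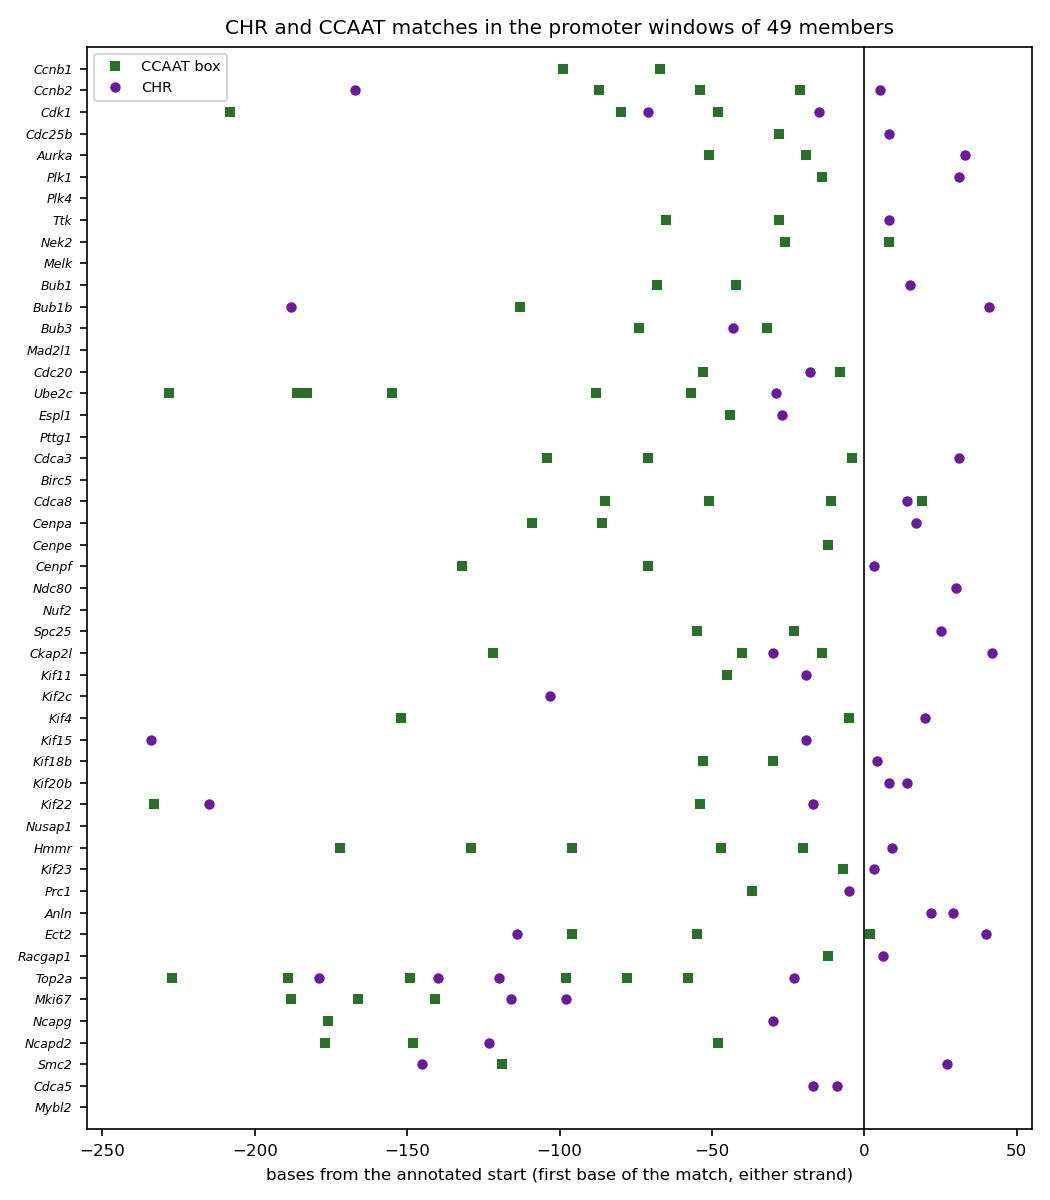
Positions of CHR (TTTGAA or TTCGAA) and CCAAT matches in the first promoter window of 49 members, in bases from the annotated start site (0 on the horizontal axis), 1 row for each member. CHR matches gather near the start and CCAAT matches lie further upstream, and Birc5 and 7 other members have neither.

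Total estimated counts were 10009823 to 15323743 per library. Libraries were scaled by TMM, edgeR's trimmed mean of M values, and levels are given as CPM, counts scaled to a common library size. CPM is not per gene length, so levels are compared between libraries and not between genes. Levels of single genes differed widely between the experiments, so each value is given by experiment. Libraries may be non-directional, and the spans of 13 members overlap a gene on the other strand (Ccna2, Cdc25b, Cdc25c, Nek2, Bub3, Cdc20, Cdca8, Kif4, Kif22, Nusap1, Kif20a, Prc1 and Ncapg), whose reads could not then be separated. The span of Kif11 overlaps a gene on the same strand, Gm8663, whose reads strand would not separate in any library. Gene positions are those of the deposited tables, on the build mm39 that the submitters' processing notes name. Values are listed in the order Peyer's patch ZsGreen-, Peyer's patch ZsGreen+, spleen ZsGreen- and spleen ZsGreen+. The 8 T and Tfh marker genes were all above 0 in every library, with Cxcr5 from 105 to 802 CPM and Cd4 from 673 to 1356 CPM. Levels above 0 do not measure how pure the sorted Tfh cells were. Cxcr5 was lowest in the spleen ZsGreen+ library of each experiment.

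The members took their largest share of mRNA in spleen ZsGreen+ cells. They held 0.571% and 0.648% of the counts there (experiments 1 and 2), 0.305% and 0.222% in spleen ZsGreen- cells, 0.198% and 0.344% in Peyer's patch ZsGreen+ cells, and 0.166% and 0.216% in Peyer's patch ZsGreen- cells. The mean log2 CPM over the 58 members (prior count 2) was 3.73, 4.02, 4.70 and 5.80 in experiment 1 and 4.69, 5.27, 5.18 and 6.51 in experiment 2. Spleen ZsGreen+ was the highest and Peyer's patch ZsGreen- the lowest library of each experiment. Spleen ZsGreen- and Peyer's patch ZsGreen+ changed places, since the mean of spleen ZsGreen- lay above in experiment 1 and slightly below in experiment 2. The shares are of counts before TMM scaling and the means are after it. In experiment 2 the TMM factors were 0.971 for Peyer's patch ZsGreen+ and 0.656 for spleen ZsGreen-. The shares of these libraries therefore lay further apart than their means. In bulk RNA, more dividing cells and more of these mRNAs per dividing cell cannot be told apart.

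Gene by gene, 57 of 58 members (98.3%) had their highest level in spleen ZsGreen+ cells in both experiments, against 16.8% of all 14418 tested genes. The exception was Smc4. The order spleen ZsGreen+, spleen ZsGreen-, Peyer's patch ZsGreen+, Peyer's patch ZsGreen-, from high to low, held for 46 members (79.3%) in experiment 1, against 7.23% of all genes. In experiment 2 it held for 19 (32.8%), and 34 (58.6%) had Peyer's patch ZsGreen+ above spleen ZsGreen- instead, against 7.46% and 6.37% of all genes. Peyer's patch ZsGreen+ exceeded spleen ZsGreen- for 3 members in experiment 1, against 51.7% of all genes, and for 38 of 58 in experiment 2, against 51.2%, with a median log2 difference of 0.14 there.

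**Figure D2:**
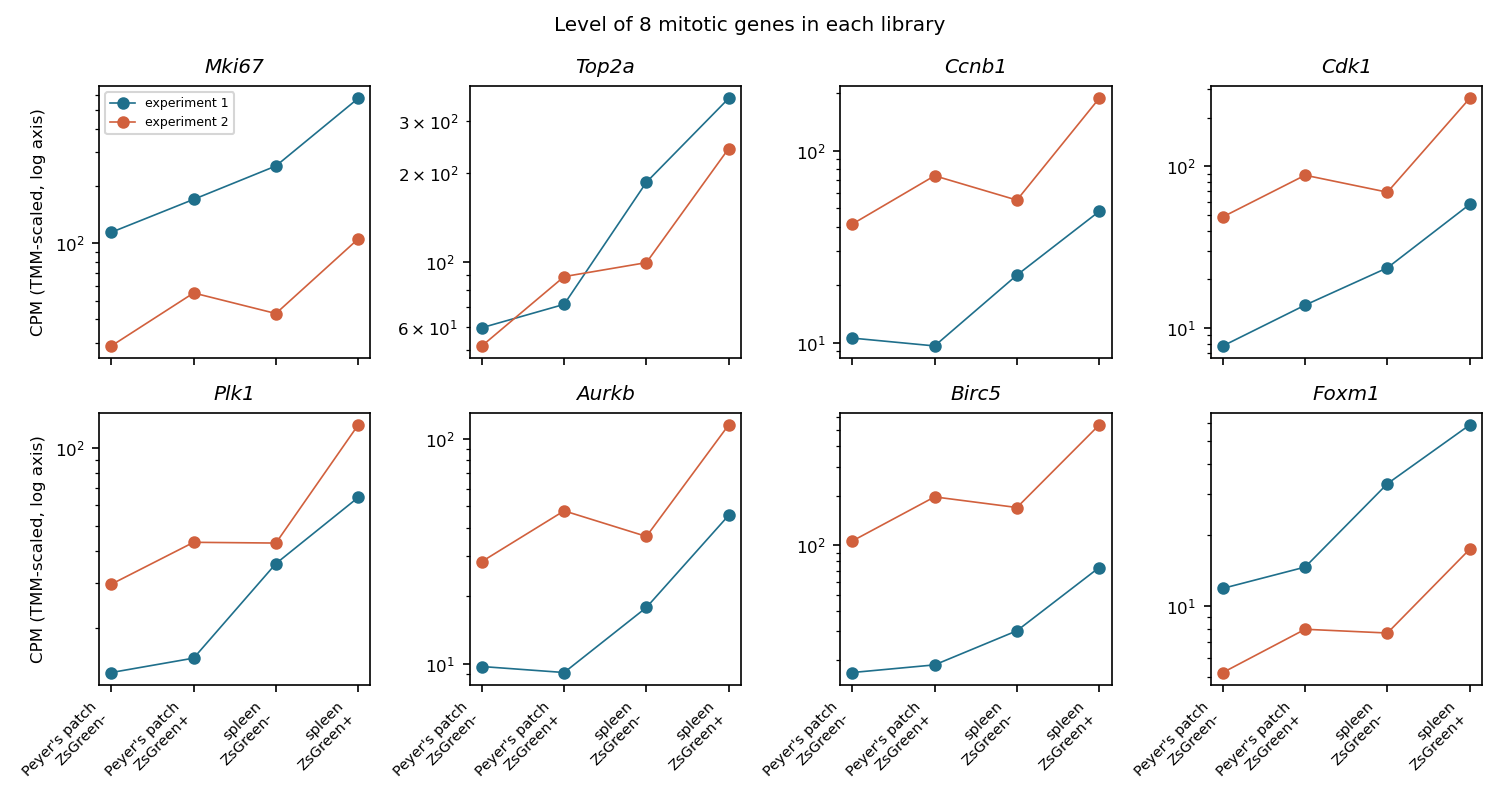
CPM on a log axis of Mki67, Top2a, Ccnb1, Cdk1, Plk1, Aurkb, Birc5 and Foxm1 in each library, with 1 line for each experiment through its 4 groups. Spleen ZsGreen+ is the highest point of every line.

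**Figure D3:**
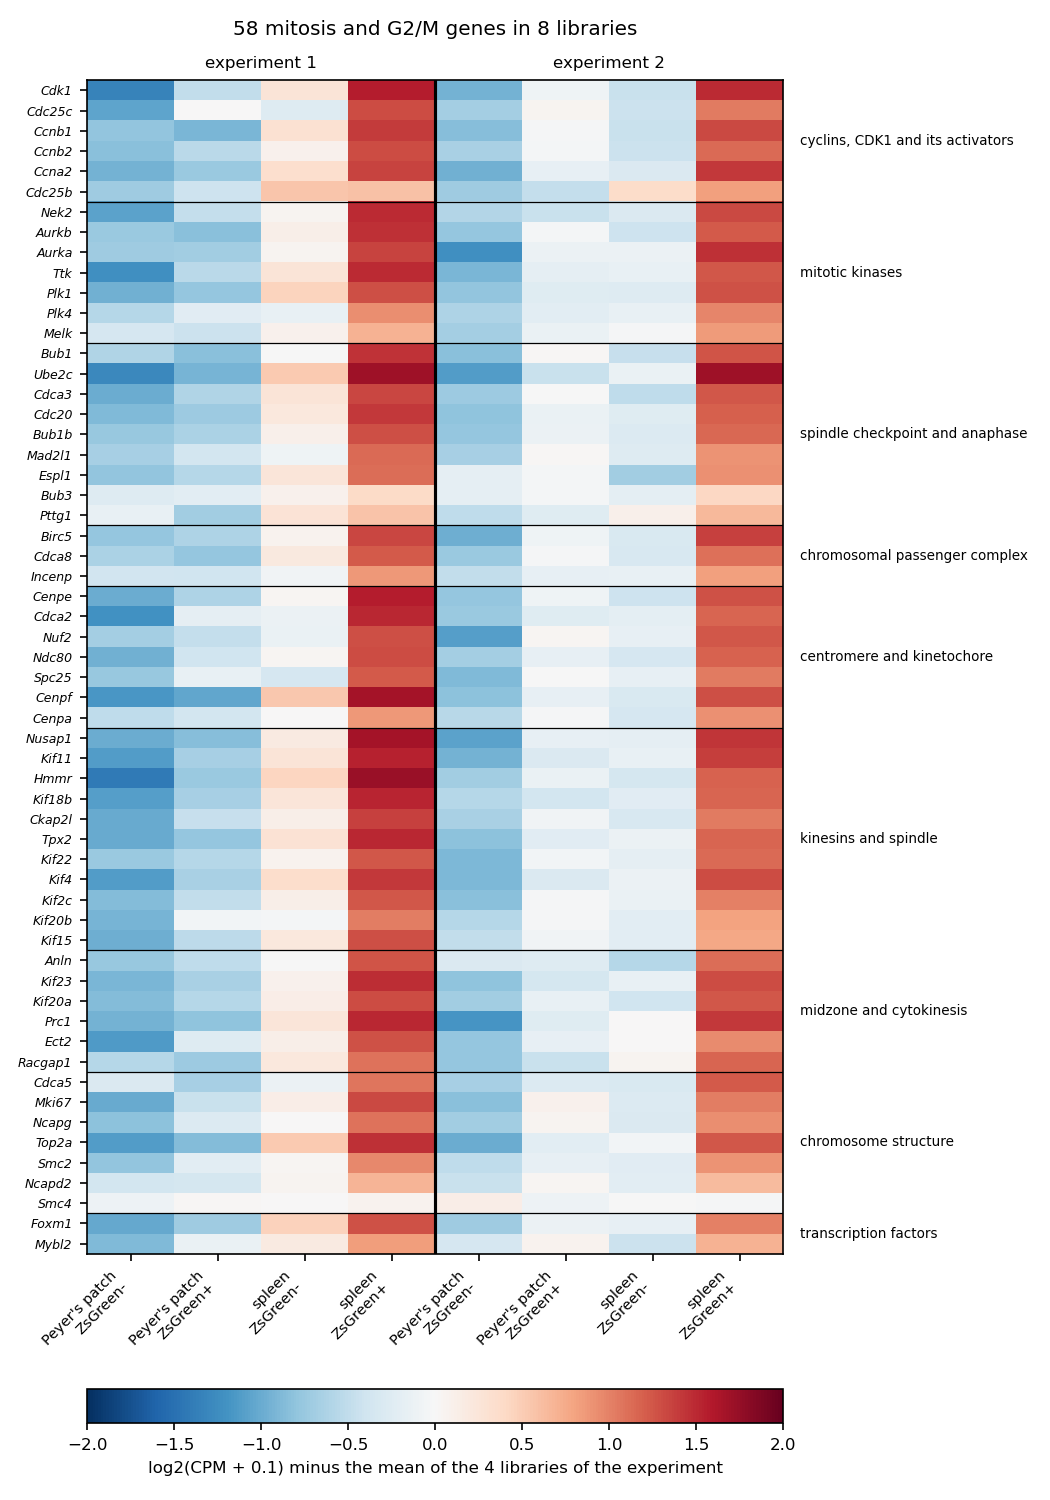
Log2 of CPM plus 0.1 for each of the 58 members in the 8 libraries, minus the mean of the 4 libraries of the same experiment, with members grouped by role. The spleen ZsGreen+ column is the highest of its experiment for every member, except Smc4 in experiment 2.

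The sort in spleen, ZsGreen+ against ZsGreen- cells, asks which genes differ in spleen Tfh cells with a Th17 past. Of the 58 members 48 rose in ZsGreen+ cells and 0 fell (edgeR quasi-likelihood test, Benjamini-Hochberg adjusted p under 0.05), where 4.53% of all tested genes rose and 4.09% fell. The median log2 fold change of the members was 1.30, against -0.03 for all genes. By experiment, the mean of the members was higher in ZsGreen+ cells by 1.09 and 1.33, and 57 of 58 were higher in both experiments, against 31.7% of all genes.

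Among the cyclins and CDK1 with its activators, 4 of 6 rose, with a median log2 fold change of 1.39. Cdk1, the kinase that triggers mitosis (chr10:69170976-69188769), stood at 7.73, 13.8, 23.5 and 58.1 CPM in experiment 1 and 48.6, 88.1, 69.1 and 263 CPM in experiment 2. Spleen ZsGreen+ cells were the highest group of each experiment by a wide margin, though the range of the groups overlapped across the experiments. Its log2 fold change was 1.59 ± 0.25 (SE, adjusted p = 0.00847). Ccnb1, the cyclin B1 partner of Cdk1 (chr13:100915158-100923079), stood at 10.6, 9.61, 22.5 and 48.2 CPM in experiment 1 and 41.4, 73.9, 55.2 and 187 CPM in experiment 2. Its change of 1.39 ± 0.36 was as large as that of the gene for cyclin B2, but its spread was wider and it missed the threshold (adjusted p = 0.0854). Ccnb2, for cyclin B2, rose by 1.38 ± 0.21 (adjusted p = 0.00408), and Ccna2, for the S and G2 cyclin A2, by 1.33 ± 0.24 (adjusted p = 0.0136). The phosphatases that activate Cdk1 parted. Cdc25c stood at 1.20, 2.59, 2.14 and 6.55 CPM in experiment 1 and 4.65, 7.80, 5.52 and 15.5 CPM in experiment 2 and rose by 1.55 ± 0.33 (adjusted p = 0.0128). Cdc25b stood at 109, 134, 261 and 268 CPM in experiment 1 and 52.7, 61.9, 111 and 153 CPM in experiment 2. It differed between the tissues rather than the sorts, with both spleen libraries above both Peyer's patch libraries of their experiment, and its spleen sort value was 0.25 ± 0.14 (adjusted p = 0.332).

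Of the mitotic kinases 6 of 7 rose (median 1.31). Plk1, Polo-like kinase 1 (chr7:121758662-121769097), stood at 13.4, 15.2, 35.6 and 64.4 CPM in experiment 1 and 29.6, 43.1, 42.8 and 123 CPM in experiment 2. Aurkb, the kinase of the chromosomal passenger complex (chr11:68936473-68942491), stood at 9.74, 9.16, 17.8 and 45.6 CPM in experiment 1 and 28.5, 47.8, 36.8 and 115 CPM in experiment 2. Both were highest in spleen ZsGreen+ cells of each experiment, and rose by 1.14 ± 0.25 (adjusted p = 0.0235) and 1.48 ± 0.27 (adjusted p = 0.0143). Nek2, a kinase that parts the centrosomes, stood at 9.09, 13.7, 19.9 and 54.0 CPM in experiment 1 and 14.7, 16.2, 18.2 and 55.7 CPM in experiment 2. Here the 3 other groups of experiment 2 lay close together and spleen ZsGreen+ stood clear of them, and the log2 fold change was 1.50 ± 0.20 (adjusted p = 0.00105). Aurka, the kinase of spindle poles, rose by 1.43 (adjusted p = 0.00237), Ttk, a checkpoint kinase, by 1.31 (adjusted p = 0.0242), and Plk4, which starts centriole duplication, by 1.11 (adjusted p = 0.00201). Melk had a value of 0.75 ± 0.23 (adjusted p = 0.0699).

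The spindle checkpoint and anaphase genes had 6 of 9 members that rose (median 1.29). Bub1, a checkpoint kinase of the kinetochore, stood at 5.93, 5.0, 8.93 and 24.7 CPM in experiment 1 and 8.09, 14.9, 10.6 and 35.0 CPM in experiment 2 and rose by 1.57 ± 0.29 (adjusted p = 0.00714). In Peyer's patch of experiment 1, ZsGreen+ lay slightly below ZsGreen-. Ube2c, the ubiquitin-conjugating enzyme of the anaphase-promoting complex, stood at 10.9, 14.1, 38.5 and 87.6 CPM in experiment 1 and 77.0, 124, 153 and 543 CPM in experiment 2. Both Peyer's patch libraries lay below both spleen libraries of each experiment, and it rose by 1.48 ± 0.23 (adjusted p = 0.00615). Bub1b rose by 1.29, Mad2l1 by 1.19, Cdc20, the activator of the anaphase-promoting complex, by 1.30, and Cdca3 by 1.37 (adjusted p 0.00111 to 0.0246). Pttg1, for securin, the inhibitor of separase, stood at 14.2, 9.67, 18.9 and 23.5 CPM in experiment 1 and 55.8, 66.8, 85.7 and 125 CPM in experiment 2. It was somewhat higher in spleen ZsGreen+ than in spleen ZsGreen- of each experiment, with a log2 fold change of 0.43 ± 0.18 (adjusted p = 0.184). Espl1, for separase itself, had a value of 1.04 ± 0.31 (adjusted p = 0.0615), and Bub3 one of 0.45 ± 0.15 (adjusted p = 0.0857).

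All 3 other members of the chromosomal passenger complex rose. Birc5, for survivin (chr11:117740077-117746570), stood at 16.9, 18.8, 30.3 and 73.4 CPM in experiment 1 and 106, 197, 170.0 and 539.9 CPM in experiment 2. Spleen ZsGreen+ was the highest library of each experiment, and the log2 fold change was 1.47 ± 0.19 (adjusted p = 0.00111). Cdca8, for borealin, rose by 1.20 (adjusted p = 0.0268), and the scaffold gene Incenp by 0.96 (adjusted p = 0.00152).

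Of the centromere and kinetochore genes 6 of 7 rose (median 1.38). Cenpe, for the kinesin that moves chromosomes to the spindle equator, stood at 14.4, 18.9, 29.6 and 86.5 CPM in experiment 1 and 26.4, 42.6, 33.9 and 110.2 CPM in experiment 2. It had the largest log2 fold change of the members, 1.60 ± 0.22 (adjusted p = 0.00214). Spc25, a subunit of the Ndc80 complex that binds microtubules, stood at 4.95, 7.59, 6.63 and 19.9 CPM in experiment 1 and 30.7, 56.2, 50.6 and 116 CPM in experiment 2 and had the lowest adjusted p of the members in this comparison (1.38 ± 0.16, adjusted p = 0.00043). Ndc80 and Nuf2 of the same complex rose by 1.38 and 1.42 (adjusted p = 0.00111 and 0.0021). Cenpa, the centromeric histone H3 variant, rose by 1.04 (adjusted p = 0.00256). Cdca2, which recruits a phosphatase to chromosomes, stood at 5.01, 10.3, 10.7 and 33.2 CPM in experiment 1 and 11.9, 16.8, 17.3 and 44.4 CPM in experiment 2 and rose by 1.50 ± 0.22 (adjusted p = 0.00166). Cenpf stood at 8.06, 8.83, 26.5 and 57.9 CPM in experiment 1 and 17.3, 27.5, 24.8 and 75.3 CPM in experiment 2. Its value of 1.30 ± 0.40 did not pass (adjusted p = 0.128).

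The kinesins and spindle genes had 10 of 11 members that rose (median 1.25). Kif11, the motor that separates the spindle poles, stood at 20.2, 27.7, 52.6 and 129 CPM in experiment 1 and 19.4, 30.5, 33.9 and 97.4 CPM in experiment 2 and rose by 1.38 ± 0.18 (adjusted p = 0.000908). Nusap1, a microtubule-bundling protein of the spindle, stood at 10.7, 11.8, 24.4 and 68.0 CPM in experiment 1 and 32.6, 60.9, 60.2 and 184 CPM in experiment 2 and rose by 1.54 ± 0.22 (adjusted p = 0.0036). In both genes spleen ZsGreen+ stood well above every other library of its experiment. Kif4, a chromosome-bound motor, stood at 6.37, 8.77, 17.8 and 37.1 CPM in experiment 1 and 7.64, 11.6, 13.2 and 35.5 CPM in experiment 2 and rose by 1.21 ± 0.22 (adjusted p = 0.0065). Tpx2, which carries Aurora A to the spindle, rose by 1.25 (adjusted p = 0.00713). Hmmr had a value of 1.38 ± 0.41 (adjusted p = 0.117).

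All 6 midzone and cytokinesis genes rose (median 1.34). Kif23, the motor of the centralspindlin complex, stood at 11.4, 13.7, 23.1 and 60.3 CPM in experiment 1 and 21.5, 29.6, 34.2 and 93.7 CPM in experiment 2 and rose by 1.41 ± 0.17 (adjusted p = 0.000467). Its partner Racgap1 rose by 0.99 ± 0.15 (adjusted p = 0.0019). Prc1, the bundler of the central spindle, stood at 14.3, 15.7, 32.7 and 78.4 CPM in experiment 1 and 20.8, 39.7, 47.4 and 125 CPM in experiment 2 and rose by 1.33 ± 0.19 (adjusted p = 0.00163). Ect2, the exchange factor that activates RhoA at the equator, stood at 6.31, 11.7, 15.1 and 33.9 CPM in experiment 1 and 10.1, 15.5, 17.5 and 33.4 CPM in experiment 2 and rose by 1.06 ± 0.21 (adjusted p = 0.00904). Anln, for the scaffold anillin of the contractile ring, stood at 3.81, 4.55, 6.47 and 15.7 CPM in experiment 1 and 3.77, 3.83, 3.07 and 10.1 CPM in experiment 2. The spleen ZsGreen+ libraries stood apart from the rest of their experiment, and it rose by 1.42 ± 0.32 (adjusted p = 0.0182). Kif20a rose by 1.36 (adjusted p = 0.00227).

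Of the chromosome structure genes 6 of 7 rose (median 1.09). Mki67, for the proliferation antigen Ki-67 that coats mitotic chromosomes (chr7:135291513-135318091), stood at 114, 169.9, 254 and 576 CPM in experiment 1 and 28.9, 54.8, 42.8 and 105 CPM in experiment 2. Spleen ZsGreen+ was the highest library of each experiment although all levels were lower in experiment 2, and it rose by 1.22 ± 0.21 (adjusted p = 0.00686). Top2a, for the topoisomerase that untangles sister chromatids (chr11:98883769-98915016), stood at 59.5, 71.5, 186 and 359 CPM in experiment 1 and 51.6, 88.9, 99.2 and 242 CPM in experiment 2 and rose by 1.09 ± 0.26 (adjusted p = 0.0409). Cdca5, for sororin, which holds sister chromatids together, stood at 7.78, 6.02, 8.82 and 20.2 CPM in experiment 1 and 16.1, 21.2, 20.7 and 59.7 CPM in experiment 2 and rose by 1.36 ± 0.21 (adjusted p = 0.00268). The condensin genes Ncapg, Ncapd2 and Smc2 rose by 1.14, 0.72 and 1.02 (adjusted p = 0.00263, 0.017 and 0.00156). Smc4, for the partner of Smc2 in condensin, stood at 246, 268, 266 and 279 CPM in experiment 1 and 471, 399, 426 and 420.1 CPM in experiment 2. Its groups did not separate, and its value was 0.03 ± 0.15 (adjusted p = 0.947).

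The transcription factors were split by the threshold. Foxm1, an activator of G2/M genes (chr6:128339930-128353110), stood at 11.9, 14.6, 33.1 and 58.7 CPM in experiment 1 and 5.21, 7.95, 7.67 and 17.4 CPM in experiment 2 and rose by 0.93 ± 0.26 (adjusted p = 0.0484). Mybl2, for B-Myb, stood at 6.69, 11.4, 14.1 and 22.3 CPM in experiment 1 and 10.6, 14.2, 9.96 and 21.9 CPM in experiment 2, with a value of 0.84 ± 0.26 (adjusted p = 0.0719). Both were highest in the spleen ZsGreen+ library of each experiment.

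Calls in the spleen sort leaned on single libraries. Of the 48 members 25 were called with any 1 library left out, among them Birc5, Cenpe, Kif11, Kif23, Spc25 and Cenpa. Without spleen ZsGreen- replicate 2, the library with the lowest total, 30 members rose (1.82% of all genes rose), and without spleen ZsGreen+ replicate 1 25 rose (2%). Mki67 and Cdc20 lost their calls without spleen ZsGreen+ replicate 1 alone, Cdk1 and Ube2c also without spleen ZsGreen+ replicate 2, and Top2a, Plk1, Foxm1, Cdca3 and Cdca8 when any of 5 libraries was left out. Without the experiment term, 0 members and 0% of all genes were called in this comparison.

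Markers of other cells were read beside these results, and they moved in both directions. The 12 B cell markers summed to 218 and 738 CPM in spleen ZsGreen- and 158 and 236 CPM in spleen ZsGreen+ libraries (experiments 1 and 2), but most of each sum was Ighm, which fell (-1.39 ± 0.28, adjusted p = 0.02) from 202 and 714 to 125 and 169.6 CPM. Cd74, which other antigen-presenting cells also express, went the other way, from 9.79 and 19.0 to 26.5 and 60.1 CPM. Of the 11 B cell markers tested Ighm alone passed, 3 were higher in both experiments and 4 lower. Of 6 germinal-centre B cell markers 3 were in both tables, and they summed to 2.66 to 19.0 CPM over all libraries. Mef2b fell (-2.30 ± 0.42, adjusted p = 0.00676), while Mybl1 was higher in both experiments, at 0.70 and 0 against 3.35 and 0.34 CPM (adjusted p = 0.172). Plasma cell markers (5 of 6 found) summed to 11.02 and 4.14 CPM in spleen ZsGreen- and 33.1 and 8.31 in spleen ZsGreen+, and 4 of 5 were higher in both experiments, as the members were. Ighg1 was called higher (2.66 ± 0.70, adjusted p = 0.037), a call that rests on experiment 1, where it went from 1.87 to 13.8 CPM, since in experiment 2 it went from 0.15 to 0. Myeloid markers summed to 8.90 to 36.6 CPM and epithelial markers to 2.25 to 16.5 CPM in all libraries.

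Some markers of the sorted T cells were lower in spleen ZsGreen+ cells, where the members were higher. Cxcr5, which the sort selected for, fell in ZsGreen+ cells (log2 fold change -1.69 ± 0.17, adjusted p = 0.000127), as did Cd3e (-0.83, adjusted p = 0.0426). These were 2 of 8 T and Tfh markers (25%), where 4.09% of all genes fell, and 6 of the 8 were lower in both experiments. Bcl6, the transcription factor of Tfh cells, had a value of -0.92 (adjusted p = 0.0921). Trdc, the constant region of the T cell receptor delta chain and the 1 gamma-delta marker found of 4, fell by 2.29 (adjusted p = 0.0398). The part of these markers in the members' result was not tested.

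The sort in Peyer's patch asks the same of gut Tfh cells. Here 0 members rose and 0 fell in ZsGreen+ cells by edgeR at an adjusted p under 0.05, where 0.284% of all tested genes rose and 0.153% fell. At an unadjusted p under 0.05, 25 members were higher and 0 lower, against 4.31% and 3.82% of all genes. DESeq2 called 1 member, Spc25. The median log2 fold change of the members was 0.48, against 0.00 for all genes, and by experiment their mean was higher in ZsGreen+ cells by 0.30 and 0.59. In both experiments 48 of 58 were higher, against 27.4% of all genes, and 0 were lower in both, against 26.2%.

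The largest values in Peyer's patch were 0.90 ± 0.34 for Cdc25c (adjusted p = 0.468), 0.85 ± 0.26 for Cdk1 (adjusted p = 0.401), 0.77 ± 0.21 for Mki67 (adjusted p = 0.293), 0.76 ± 0.17 for Spc25 (adjusted p = 0.112), 0.76 ± 0.23 for Cdca2 (adjusted p = 0.316) and 0.75 ± 0.22 for Ect2 (adjusted p = 0.294). The smallest were -0.11 ± 0.18 for Pttg1, -0.06 ± 0.15 for Smc4 and 0.03 ± 0.22 for Cdca5 (adjusted p = 0.939, 0.962 and 0.987). All 11 kinesin and spindle genes and all 7 centromere and kinetochore genes were higher in ZsGreen+ cells in both experiments, against 1 of 3 of the chromosomal passenger genes. The 10 members not higher in both were Ccnb1, Aurkb, Melk, Bub1, Pttg1, Cdca8, Incenp, Racgap1, Smc4 and Cdca5. Each role had a higher median in experiment 2 than in experiment 1, other than the 2 transcription factors. Without Peyer's patch ZsGreen+ replicate 1 the median of the members was 0.80 and Nusap1 and Mki67 passed, and without replicate 2 of that group it was 0.11. The B cell markers, again mostly Ighm, summed to 441 and 689 CPM in Peyer's patch ZsGreen- and 417 and 558 in ZsGreen+ libraries, and 0 of 11 tested passed.

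**Figure D4:**
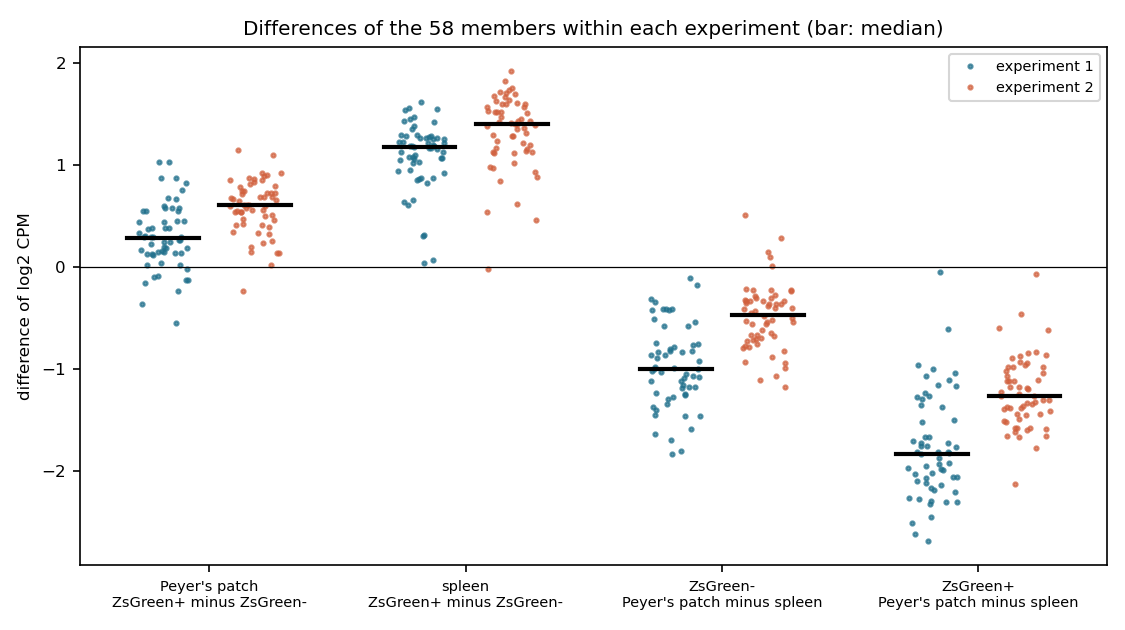
Difference of log2 CPM for each of the 58 members within experiment 1 and within experiment 2, in the sort of each tissue (ZsGreen+ minus ZsGreen-) and the tissue comparison of each sort (Peyer's patch minus spleen), with a bar at the median. In the spleen sort 57 of 58 members lie above 0 in both experiments and in the Peyer's patch sort 48, and all 58 lie below 0 in both experiments in the tissue comparison of ZsGreen+ cells.

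The difference between the sort effects was tested as an interaction, spleen minus Peyer's patch. Of the members 0 passed the adjusted threshold in edgeR's test in either direction, where 0.0694% of all genes passed higher and 0.0277% lower. At an unadjusted p under 0.05, 33 members were higher in the spleen sort and 0 lower, against 3.81% and 4.67% of all genes, and DESeq2 called 4, Incenp, Kif23, Racgap1 and Cdca5. The median difference was 0.76, against -0.01 for all genes. Their mean difference was 0.80 in experiment 1 and 0.74 in experiment 2, and 55 of 58 members had a larger spleen effect in both, against 28.6% of all genes. So a larger effect in spleen was not shown for any single member by the adjusted test.

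The largest differences were 1.33 ± 0.31 for Cdca5 (adjusted p = 0.159), 1.27 ± 0.46 for Anln (adjusted p = 0.453), 1.19 ± 0.42 for Bub1 (adjusted p = 0.424), 1.14 ± 0.29 for Nek2 (adjusted p = 0.194), 1.07 ± 0.39 for Aurkb (adjusted p = 0.485) and 1.04 ± 0.24 for Kif23 (adjusted p = 0.159). In Cdca5, Anln, Bub1 and Aurkb the Peyer's patch groups of at least 1 experiment lay within a few CPM of each other while spleen ZsGreen+ stood apart. The smallest were -0.02 ± 0.20 for Cdc25b, 0.09 ± 0.22 for Smc4 and 0.25 ± 0.37 for Mybl2 (adjusted p = 0.997, 0.967 and 0.931), and the sign of Cdc25b changed under 2 other scalings of the libraries. Without Peyer's patch ZsGreen+ replicate 2, 10 members passed, and without spleen ZsGreen- replicate 1, 1 passed.

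**Figure D5:**
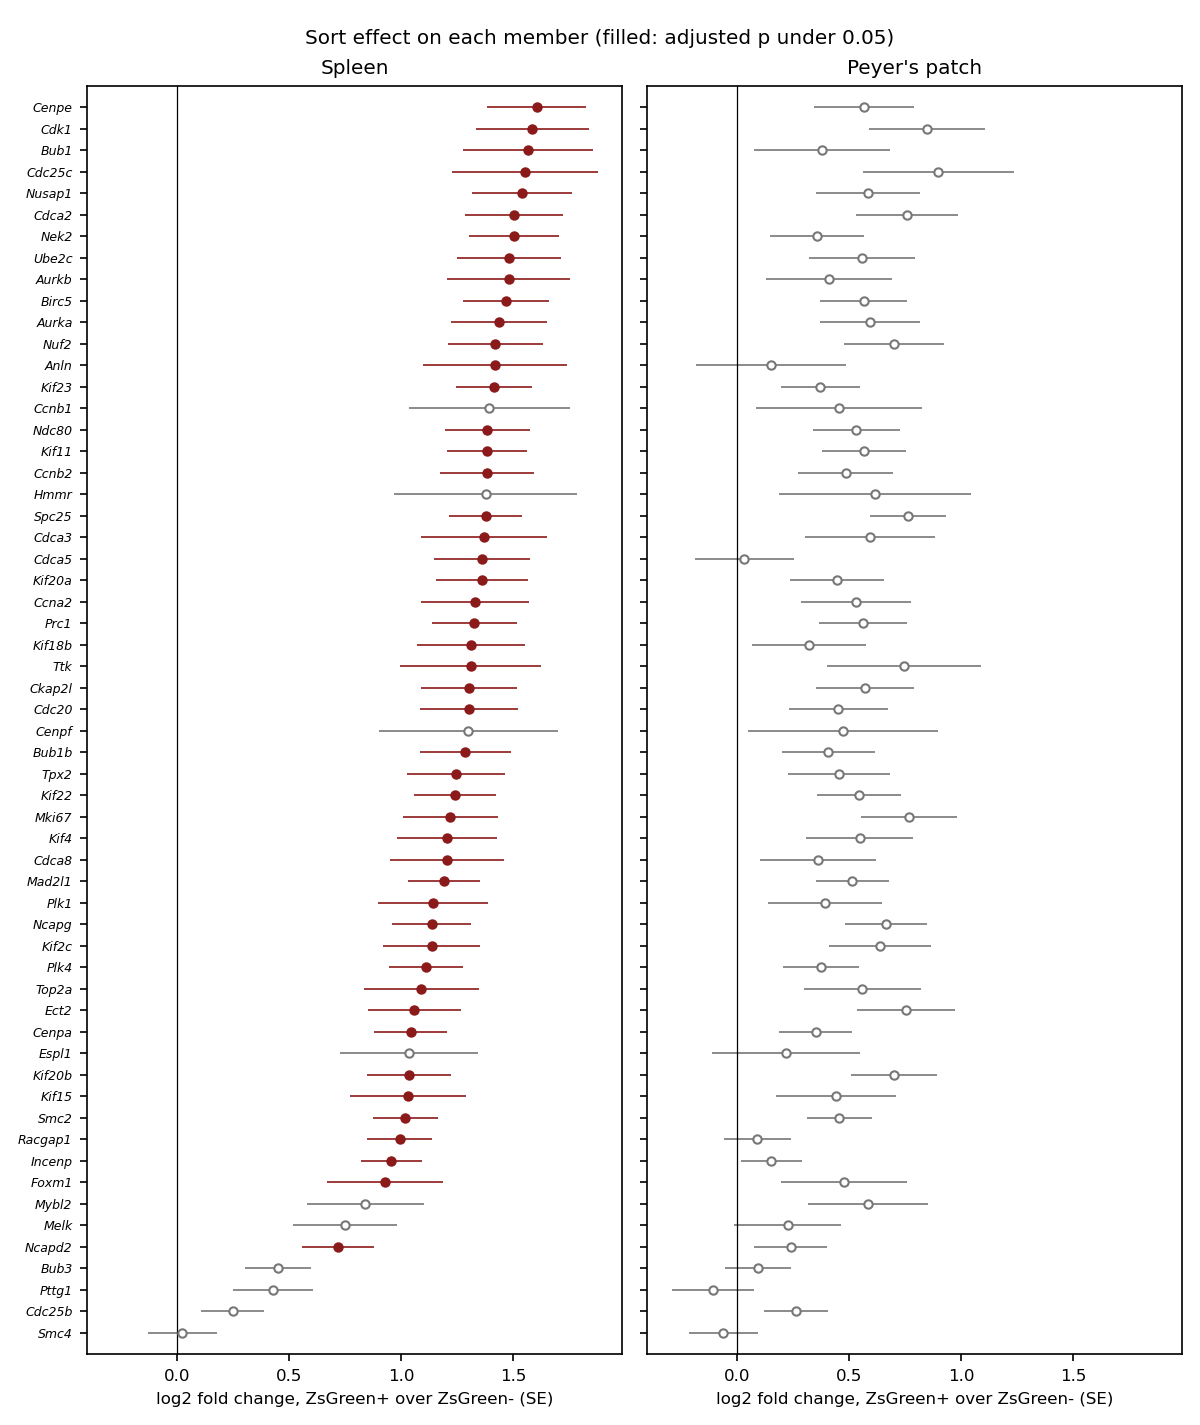
Log2 fold change of ZsGreen+ over ZsGreen- cells for each member in spleen (left) and in Peyer's patch (right), ordered by the spleen value, with bars of 1 standard error and filled points for adjusted p under 0.05. The spleen values have a median of 1.30 with 48 filled points, and the Peyer's patch values a median of 0.48 with none filled.

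Between the tissues, Peyer's patch was compared with spleen within each sort. In ZsGreen+ cells 56 of 58 members were lower in Peyer's patch and 0 higher by edgeR at an adjusted p under 0.05, where 7.17% of all genes were lower and 5.51% higher. The median log2 difference was -1.57, against 0.01 for all genes. All 58 were lower in both experiments, against 34.4% of all genes, and their mean log2 difference was -1.77 in experiment 1 and -1.23 in experiment 2. Cell type markers were called in this comparison too, in the opposite direction to the members. Of the B cell markers 4 of 11 were higher in Peyer's patch (36.4%), among them Pax5 (4.62 ± 0.44, adjusted p = 5.55e-05) and Ighm (1.31 ± 0.28, adjusted p = 0.0171), and the 12 summed to 417 and 558 CPM there against 158 and 236 CPM in spleen. Also higher were 1 of 3 germinal-centre B markers (Mef2b), 2 of 5 myeloid markers (Lyz2 and Cd68), 1 of 3 CD8 T and NK markers (Klrb1c) and 3 of 8 T and Tfh markers (Cxcr5, Bcl6 and Icos), and the part of these markers was not tested. These comparisons share libraries with the sorts, so they are read side by side with them and not as separate support.

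Ube2c had the largest difference in ZsGreen+ cells, -2.34 ± 0.24 (adjusted p = 0.000392), from 14.1 and 124 CPM in Peyer's patch and 87.6 and 543 CPM in spleen (experiments 1 and 2). Next came Cenpf at -2.01 (adjusted p = 0.0302), Nusap1 at -2.002 (adjusted p = 0.000508), Prc1 at -1.96 (adjusted p = 7.83e-05), Kif11 at -1.94 (adjusted p = 5.59e-05) and Kif23 at -1.89 (adjusted p = 3.98e-05). Racgap1 had the lowest adjusted p, 3.13e-05, at -1.71 ± 0.15. Every member of the cyclin, kinase, checkpoint, passenger, kinetochore, kinesin and cytokinesis groups passed. Smc4 and Mybl2 did not, at -0.06 ± 0.15 (adjusted p = 0.838) and -0.80 ± 0.26 (adjusted p = 0.0634). The smallest difference among the members that passed was that of Bub3, at -0.53 ± 0.15 (adjusted p = 0.0336). Of the 56 members 42 were called with any 1 library left out, and without the experiment term 0 members and 0% of all genes were.

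In ZsGreen- cells 17 of 58 members were lower in Peyer's patch and 0 higher, where 3.68% of all genes were lower and 1.82% higher. The median was -0.75, against 0.00 for all genes, and 53 of 58 were lower in both experiments, against 31.4%. The 17 were Cdc25b, Aurka, Ube2c, Birc5, Kif11, Kif4, Kif22, Tpx2, Nusap1, Kif23, Prc1, Ect2, Racgap1, Top2a, Mki67, Smc2 and Foxm1. They included 4 of the 6 cytokinesis genes, 5 of the 11 kinesin and spindle genes and 0 of the 7 kinetochore genes. The kinetochore genes were not spared, since all 7 were lower in both experiments, with a median of -0.73. Their lowest adjusted p was 0.0679, just above the threshold. Ube2c again had the largest difference, -1.42 ± 0.24 (adjusted p = 0.0106), then Top2a (-1.33 ± 0.26, adjusted p = 0.0276), Prc1 (-1.19 ± 0.20, adjusted p = 0.0044), Kif4 (-1.18 ± 0.24, adjusted p = 0.0136) and Cdc25b (-1.17 ± 0.14, adjusted p = 0.000589). Cenpf had a value of -1.19 ± 0.42 (adjusted p = 0.226). Smallest were Smc4 at 0.02 ± 0.15, Bub3 at -0.17 ± 0.15 and Cdca5 at -0.27 ± 0.22 (adjusted p = 0.971, 0.625 and 0.611).

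Calls of the tissue difference in ZsGreen- cells leaned on single libraries. The median of the members stayed between -0.996 and -0.505 with any library left out. Only Cdc25b was called with any 1 library left out. The count fell to 4 without Peyer's patch ZsGreen- replicate 1, to 3 without its replicate 2 and to 3 without spleen ZsGreen- replicate 1, and it was 29 without spleen ZsGreen- replicate 2 and 26 without Peyer's patch ZsGreen+ replicate 1. The mean log2 difference of the members was -0.98 in experiment 1 and -0.49 in experiment 2. As shares of counts before TMM scaling, the members held 0.216% in Peyer's patch and 0.222% in spleen ZsGreen- cells in experiment 2. The TMM factors of these libraries were 0.838 and 0.656, so the size of the difference in experiment 2 depends on the scaling. In experiment 1 both factors were 1.23, and the shares were 0.166% and 0.305%. The B cell markers summed to 441 CPM in Peyer's patch against 218 in spleen ZsGreen- cells in experiment 1, and to 689 against 738 CPM in experiment 2, of which Ighm made 667 and 714 CPM. Of the 11 tested 7 were higher in Peyer's patch in both experiments, and Pax5 was called (2.78 ± 0.41, adjusted p = 0.00194), at 21.9 and 2.77 against 3.53 and 0.46 CPM. The plasma cell markers were higher in Peyer's patch, at 290.4 and 36.7 against 11.02 and 4.14 CPM, led by Igha. Also called were 1 of 8 T and Tfh markers, higher in Peyer's patch, and of 3 CD8 T and NK markers 1 higher and 1 lower. Of all genes 1.82% were higher and 3.68% lower. The part of all these markers in the result was not tested.

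Other genes of the cell cycle were read from lists chosen with these data known. Of 50 further mitotic genes, 33 rose and 0 fell in the spleen sort (4.53% of all genes rose). In the Peyer's patch sort 0 were called, where 0.284% of all genes rose and 0.153% fell. In ZsGreen+ cells 34 were lower in Peyer's patch than in spleen (68%, against 7.17% of all genes). The CDK-binding subunit gene Cks1b rose in spleen by 1.20 (adjusted p = 0.00111), the lamin B1 gene Lmnb1 by 1.02 (adjusted p = 0.00121), the microtubule-associated Ckap2 by 1.45 (adjusted p = 0.00127) and Arhgap11a by 1.14 (adjusted p = 0.00225). Of 32 S phase genes 16 rose in the spleen sort (50%, against 4.53% of all genes), with a median of 0.69. In Peyer's patch ZsGreen+ cells 10 were lower (31.2%, against 7.17% of all genes), with a median of -0.44. The medians of the mitotic members were 1.30 and -1.57 in the same comparisons. The ribonucleotide reductase subunit gene Rrm2 rose in spleen by 1.48 ± 0.19 (adjusted p = 0.000996), from 68.7 and 214 CPM to 173 and 677 CPM, then Tk1 by 1.07 and Mcm3 by 1.03 (adjusted p = 0.00256 and 0.00535).

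Of the 6 genes of the G1 cyclins and kinases tested, 0 rose in the spleen sort at the adjusted threshold (2 were higher at an unadjusted p under 0.05) and 1 fell, Ccnd2, for cyclin D2, at -1.13 ± 0.24 (adjusted p = 0.0137). Ccnd2 stood at 396 and 1093 CPM in spleen ZsGreen- and at 261 and 337 CPM in spleen ZsGreen+ cells. Ccnd3 was lower in Peyer's patch, at -0.64 ± 0.14 in ZsGreen- and -0.59 ± 0.14 in ZsGreen+ cells (adjusted p = 0.0197 and 0.0156), the direction of the members. Ccnd1, Cdk2, Cdk4 and Cdk6 had spleen sort values of 0.19, 0.33, -0.05 and 0.51 (adjusted p = 0.922, 0.17, 0.89 and 0.0952). Of 11 CDK inhibitor and quiescence genes tested, 0 were called in the spleen sort, where 4.53% of all genes rose and 4.09% fell. Cdkn1a, for the inhibitor p21, stood at 15.2, 20.5, 11.0 and 30.5 CPM in experiment 1 and 30.6, 46.6, 51.5 and 158 CPM in experiment 2, with a spleen sort value of 1.56 ± 0.39 (adjusted p = 0.0772). Tob1, an antiproliferative gene, was lower in Peyer's patch in both sorts, with log2 differences of -1.64 and -1.53 (adjusted p = 0.0028 and 0.00199), so it differed in the same direction as the members there.

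Of 18 tested genes of the DREAM complex, NF-Y and E2F, 1 rose in the spleen sort (5.56%), close to the 4.53% of all genes that rose. It was Rbl2 (0.64, adjusted p = 0.0131), which encodes the DREAM pocket protein p130. E2f2 was lower in Peyer's patch, at -1.25 in ZsGreen- and -1.26 in ZsGreen+ cells (adjusted p = 0.00255 and 0.000964). Of 17 genes of the anaphase-promoting complex and its regulators, 4 rose in the spleen sort (23.5%, against 4.53% of all genes). They were Fbxo5 (0.98), Anapc15 (0.90), Fzr1 (0.58) and Anapc16 (0.58), with adjusted p from 0.00541 to 0.0184. Fbxo5 encodes an inhibitor of the complex and Fzr1 its activator in late mitosis and G1.

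The spleen sort was also set beside the promoter motifs shown above. Among members with both a CHR and a CCAAT match 27 of 32 rose (84.4%), with a CHR alone 6 of 6, with CCAAT alone 2 of 3 and with neither 5 of 8. Birc5, Nusap1, Mad2l1, Nuf2 and Plk4 are the 5 without a match that rose. Among the other genes tested, 57 of 586 with both motifs rose (9.73%) and 187 of 5128 with neither (3.65%). The further mitotic and S phase genes were not taken out of these other genes, and their part in the 2 shares was not tested. The members with both motifs had a median spleen value of 1.29 and a median Peyer's patch value of 0.52, and those with neither 1.15 and 0.54. Promoters of the build used here were matched by gene name, and no measurement of binding was made.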

How the data were processed

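Per the labels, Tfh cells of 4 groups were profiled with 2 libraries each, and replicates 1 and 2 stand in the deposited tables of experiments 1 and 2. RNA was extracted with Trizol, and the labels allow for either poly A selection or an ultra-low-input preparation without strand, not assigned to libraries. The submitters' processing notes name Partek, STAR, DESeq2 and the build mm39, without settings. The raw tables deposited by the authors hold estimated counts (expected counts) per gene, of which 17.6% to 29.9% per library were not whole (tolerance 0.01). The normalized tables hold a signal that the authors deposited, which equals these counts multiplied by 1 constant per library (0.765 to 1.58), within a relative deviation of 9.21e-06.

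Estimated counts were rounded. edgeR 4.0.16 in R 4.3.3 tested 14418 genes (filterByExpr by group, minimum count 10, minimum total 15, 2317 removed) with TMM factors of 0.656 to 1.24. Each quasi-likelihood fit (robust) held 4 group means and an experiment term, with 3 residual degrees of freedom, and p-values were adjusted by Benjamini-Hochberg over all genes tested, threshold 0.05. The standard error (SE) came from the F statistic. Pairing by experiment was checked: across genes, deviations of same-experiment libraries from their group means had r of 0.825 to 0.867 over 6 pairs of groups. Log2 CPM used a prior count of 2. Alternatives were RLE scaling, the authors' constants, no filter, a minimum count of 30, DESeq2 1.42.0, no experiment term, only the 4 libraries compared, and each library left out. The script was tested on simulated data. Every member was eligible to be named, and the 8 best known, with the 6 largest and 3 smallest differences of each comparison, were given in most detail. The members and all lists were chosen with earlier results of these data known. Motifs were searched in RefSeq promoter windows of GRCm38.p6, matched by symbol and never mixed with mm39 coordinates.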

Additional observations from a re-analysis of the deposited data

How the results depend on the processing

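No median or mean difference of the members changed sign under the alternatives run. None of these alternatives scaled the libraries by their total counts alone. The median log2 fold changes and mean differences stayed above 0 in both sorts and below 0 in both tissue comparisons with any library left out. Counts moved more. Without the experiment term (no replicate block), 0 members were called in the spleen sort and in both tissue comparisons, as were 0% of all genes, so the calls rest on the pairing of libraries by experiment. DESeq2 called 1 member in Peyer's patch and 4 in the difference of the sort effects. With only the 4 libraries compared, 1 member (Cdk1) rose in Peyer's patch and 26 were lower in Peyer's patch ZsGreen- cells. The mean difference of the sort effects was 0.81 under RLE scaling and 0.86 with the median in place of the mean.

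With each library left out in turn, 0 to 2 members rose in Peyer's patch (median 0.11 to 0.80) and 25 to 51 in spleen (median 1.01 to 1.56). In Peyer's patch 3 to 29 were lower in ZsGreen- cells (median -0.996 to -0.505) and 44 to 57 in ZsGreen+ cells (median -1.94 to -1.24). In the difference of the sort effects 0 to 10 passed (median 0.47 to 1.15). In spleen Ncapd2 passed at a log2 fold change of 0.72 ± 0.16, within the range of the values seen in Peyer's patch. Its p in edgeR's test was 0.000793 (adjusted p = 0.017). Spc25 in Peyer's patch had 0.76 ± 0.17 and a p of 0.000699, but an adjusted p of 0.112. The adjustment depends on the p-values of all genes tested in a comparison, so like p-values can be adjusted differently in the 2 sorts. Other reasons why no member passed in Peyer's patch were not tested. Calls were also followed for the 8 members plotted by library and those with the largest and smallest change in each comparison. Each pair of a member and an alternative was counted once, so 1 member can count many times. Alternatives removed 42 calls in the spleen sort, 24 in the ZsGreen- and 32 in the ZsGreen+ tissue comparison, and added 5, 10 and 4. They added 5 in the Peyer's patch sort and 6 in the difference. The alternative without the experiment term, which left 0 calls, is among them.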

Other observations

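Levels of the members differed between the experiments in both directions. Averaged over the 4 groups, the log2 CPM of experiment 2 minus experiment 1 ran from -2.28 for Espl1 and -2.16 for Mki67 to 2.85 for Birc5, 2.73 for Spc25 and 2.64 for Ube2c, with a median of 0.93, against -0.02 over the tested genes with a length. Mki67, Ncapd2 (-1.79) and Foxm1 (-1.47) were thus lower in experiment 2, where Birc5 and Ube2c were higher. The log2 length of the longest protein-coding transcript (GENCODE M21) was set against this difference. Across the 58 members Pearson r was -0.59 and Spearman rho -0.63, and across 11631 tested genes they were -0.53 and -0.59. The difference thus tended to be lower in longer genes, but most members were higher in experiment 2, long ones among them. Cenpf, with the longest transcript of the members (11130 bases), had a difference of 0.75. The correlations are descriptions across genes that share the same 8 libraries, and the labels do not say which preparation each experiment had.

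The sort comparisons, which are made within an experiment, were read for longer and shorter members, split at the median transcript length. In the Peyer's patch sort the median log2 differences were 0.30 and 0.60 for the longer members in experiments 1 and 2. For the shorter members they were 0.18 and 0.69. In the spleen sort 23 of the 29 longer members and 25 of the 29 shorter members rose, with median log2 differences of 1.16 and 1.30 for the longer members in experiments 1 and 2 and 1.19 and 1.41 for the shorter.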
